A study of Mus musculus with 28 samples.

Results

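The immediate-early genes *Egr1*, *Egr2*, *Egr3*, *Ier2*, *Ier3*, *Atf3*, *Klf2*, *Klf4*, *Dusp1* and *Nr4a1* were followed through bulk RNA-sequencing of mouse tail tendon. These 10 genes, out of 25719 counted, were chosen by name as immediate-early genes outside the Fos and Jun families. The question was how their level differed between Fosl-2(Tg) and WT tendons at each stage, and how far it varied between mice of the same group. The 28 libraries, each from 1 C57BL/6 mouse, fell into an early cohort, 6 to 8 weeks old, with 7 WT and 8 Fosl-2(Tg) mice, and an established cohort, older than 14 weeks, with 6 WT and 7 Fosl-2(Tg) mice. All 15 early mice were male, whereas each established group held 1 male and otherwise females (5 WT and 6 Fosl-2(Tg)), so that stage and sex cannot be told apart. The Fosl-2(Tg) mice carry a randomly inserted vector in which the H2Kb promoter (MHC class I) drives murine *Fosl2*, coding for a subunit of the factor AP-1, followed by eGFP. The controls were nontransgenic animals of the same breeding.

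Immediate-early genes are transcribed within minutes of a stimulus such as a growth factor, mechanical load or tissue damage, without the need for new protein. Serum response factor at CArG boxes and CREB at cyclic AMP response elements (CREs) are the classical activators, acting downstream of MAP kinases. Most of the products are transcription factors that start a second wave of transcription, and EGR1 is known as a load-responsive regulator of tendon collagen genes. The messages are short-lived, so their level falls again soon after a stimulus ends. In bulk tissue, fewer cells of a type and less RNA per cell cannot be told apart.

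On the mouse genome GRCm39, *Egr1* (ENSMUSG00000038418) lies on chromosome 18 from 34992876 to 34998049 on the plus strand. Among the others, *Klf2* (chromosome 8, 73072726 to 73075502, plus strand) overlaps the counted gene *Eps15l1* on the opposite strand. The annotated span of *Dusp1* (chromosome 17, 26724564 to 26781102, minus strand) likewise overlaps *Ergic1*. The other members are *Egr2* (chromosome 10, 67371305 to 67378018, plus strand), *Egr3* (chromosome 14, 70314350 to 70320063, plus), *Ier2* (chromosome 8, 85387960 to 85389483, minus) and *Ier3* (chromosome 17, 36132568 to 36133815, plus). *Atf3* lies on chromosome 1 (190902493 to 190950241, minus), *Klf4* on chromosome 4 (55527139 to 55532528, minus) and *Nr4a1* on chromosome 15 (101151980 to 101172681, plus). Whether reads were counted by strand is not stated, so the counts of both genes may hold reads of these neighbours.

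Library totals ranged from 9645598 to 66894396 counts, with a median of 18685760. In the early cohort, *Fosl2* itself averaged 88.7 ± 26.1 CPM (SD, n = 7; CPM are counts scaled to the library total after TMM correction) for WT tendons, against 102 ± 40.5 CPM (SD, n = 8) for the transgenic ones. The established values were 111 ± 32.7 CPM (SD, n = 6) and 143 ± 15.8 CPM (SD, n = 7). In neither cohort did *Fosl2* pass the test (edgeR, FDR = 0.918 early and 0.141 established), and its count holds endogenous and transgene reads alike. All 6 tendon fibroblast markers were detected in every library. Their summed level was 61831 to 130138 CPM in established WT and 2516 to 53912 CPM in established Fosl-2(Tg) tendons, and these ranges do not overlap. Markers of skeletal muscle summed to between 27.3 and 8100 CPM and those of keratinocytes to at most 3.81 CPM. In the established cohort, macrophage markers summed to 348 to 517 CPM in WT and 455 to 721 CPM in Fosl-2(Tg) tendons, and erythroid markers reached 126 CPM in a Fosl-2(Tg) library. The part of these differences in the results on the members was not tested, except where the muscle score entered a fit.

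The promoters are shown because several of the members had correlated levels across libraries. In the 300 bases before the annotated transcript start, a CArG box was found in *Egr2*, which encodes a zinc finger factor closely related to EGR1. The CRE letters TGACGTCA were found in *Ier2*, which encodes a short-lived nuclear protein, and in *Dusp1*, which encodes a phosphatase that inactivates MAP kinases. EGR sites (GCGTGGGCG or GCGGGGGCG) were found in *Klf2* and *Klf4*, which encode Krüppel-like transcription factors. Sequences are GRCm39, read 5′ to 3′ on the strand of the gene with the match in capitals.

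Egr2, CArG box starting 65 bases before the start, chr10:67373607-67373656, plus strand: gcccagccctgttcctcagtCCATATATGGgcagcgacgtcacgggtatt
Ier2, CRE starting 43 bases before the start, chr8:85389499-85389546, minus strand: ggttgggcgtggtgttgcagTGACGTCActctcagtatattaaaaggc
Dusp1, CRE starting 96 bases before the start, chr17:26727562-26727609, minus strand: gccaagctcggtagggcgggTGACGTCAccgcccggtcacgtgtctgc
Klf2, EGR site starting 19 bases before the start, chr8:73072687-73072725, plus strand: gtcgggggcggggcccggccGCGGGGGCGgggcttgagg
Klf4, EGR site on the opposite strand starting 203 bases before the start, chr4:55532641-55532689, minus strand: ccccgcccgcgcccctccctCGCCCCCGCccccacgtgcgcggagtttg

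Both strands were searched over 16022 promoters of the genes tested. CArG boxes stood in 1.52% of all promoters. CREs stood in 2 of the 10 members and in 1.84% of all promoters, and EGR sites in 2 members and 3.78%. AP-1 sites (TGACTCA or TGAGTCA), to which FOSL2-containing dimers bind, were in 4.02% of all promoters and in no member within this window. The TATAAA letters were in 1 member and in 11.2% of promoters. No motif overlapped another in the members shown, and a match of letters is not a measured binding site.

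Per kilobase of transcript, *Klf4* had the highest level of the group in all 4 groups of mice, with a mean over 28 libraries of 79.1 ± 18.7 CPM per kb (SD). *Dusp1* followed at 47.8 ± 23.1, *Klf2* at 35.9 ± 11.9 and *Ier3* at 22.4 ± 8.32 CPM per kb. *Egr1* (11.4 ± 7.33), *Ier2* (11.3 ± 3.80) and *Nr4a1* (9.71 ± 7.07 CPM per kb) did not differ beyond their spread. *Atf3* was lower at 2.68 ± 1.69 CPM per kb. *Egr2* (0.762 ± 0.369) and *Egr3* (0.487 ± 0.250 CPM per kb) were the lowest, with single libraries at only 6 and 5 counts, respectively.

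**Figure D1:**
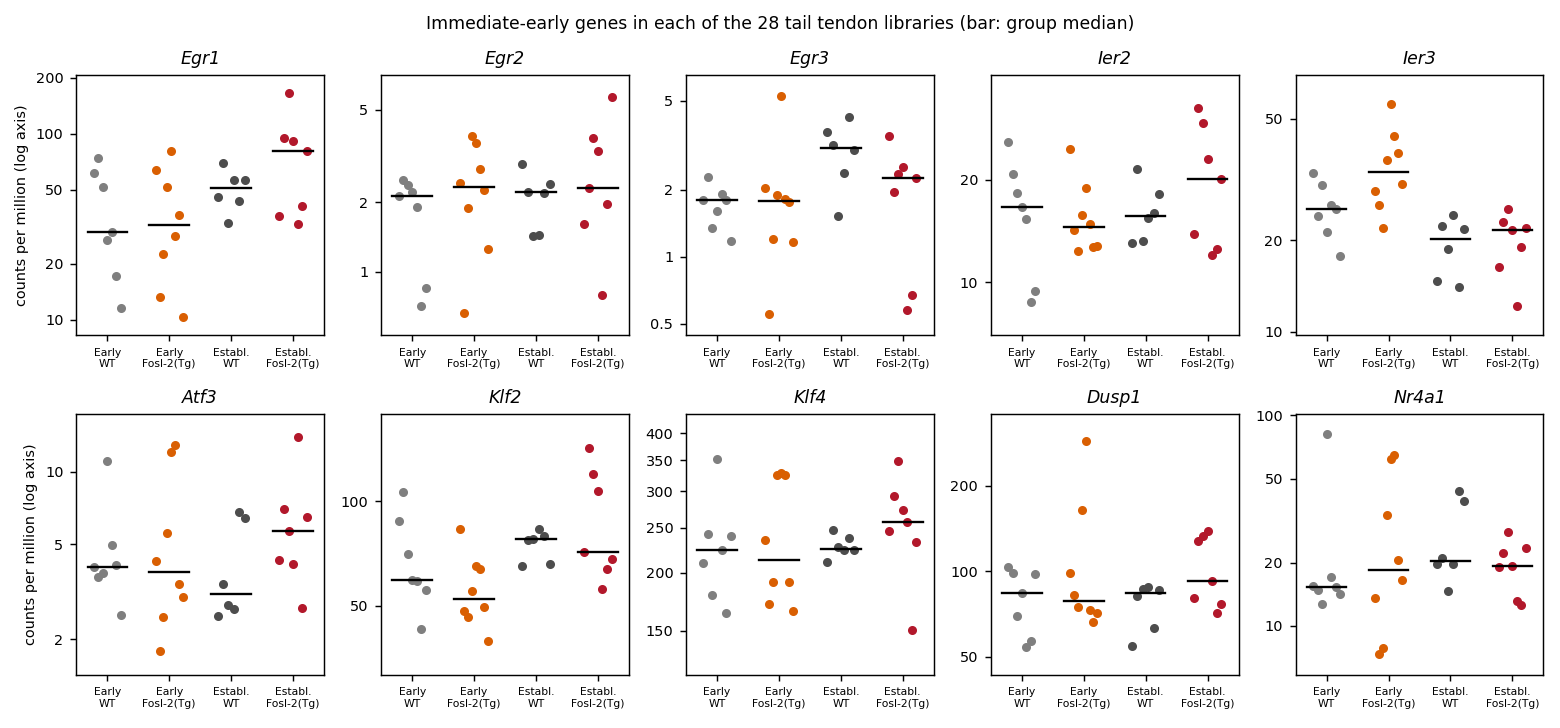
Level of each immediate-early gene in CPM (log axis, its range set for each gene) in early and established WT and Fosl-2(Tg) tendons; each point is 1 of 28 libraries and the bar is the group median. The genotypes overlap for all 10 genes in both cohorts, *Egr1* spans 10.3 to 166 CPM, and *Klf4* lies between 211 and 248 CPM in all established WT libraries.

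CPM values are scaled by TMM over the 28 libraries. In early WT tendons, *Egr1* ranged from 11.6 to 74.5 CPM with a median of 29.8 CPM. In early Fosl-2(Tg) tendons it ranged from 10.3 to 81.1 CPM with a median of 32.5 CPM. Both early groups therefore covered nearly the same wide range. The log2 fold change was -0.01 (standard error 0.45, 95% interval -0.99 to 0.97, edgeR FDR = 0.998). In established WT tendons, *Egr1* was at 33.0 to 69.9 CPM (median 51.0), and in established Fosl-2(Tg) tendons at 32.8 to 166 CPM (median 80.5). Of the 7 Fosl-2(Tg) libraries, 4 exceeded every WT library, while the other 3 lay at 32.8 to 40.7 CPM, near the lowest WT library. The log2 fold change was 0.61 (standard error 0.35, 95% interval -0.15 to 1.37, FDR = 0.269), and it was 0.31 without established Fosl-2(Tg) replicate 3, the library at 166 CPM.

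*Egr2* and *Egr3*, which encode zinc finger factors of the EGR family, were measured at low counts. The median of *Egr2* was 2.13 CPM in early WT, 2.33 in early Fosl-2(Tg), 2.20 in established WT and 2.30 CPM in established Fosl-2(Tg) tendons, with all libraries between 0.668 and 5.67 CPM. *Egr3* had medians of 1.80, 1.79, 3.08 and 2.25 CPM in the same order of groups. The established *Egr3* ranges were 1.52 to 4.25 CPM in WT and 0.577 to 3.47 CPM in Fosl-2(Tg) tendons. The fold change there was -0.58 on the log2 scale (standard error 0.36, 95% interval -1.37 to 0.20, FDR = 0.307), opposite in sign to *Egr1* (0.61) and *Egr2* (0.44), and none of the 3 passed the test.

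*Ier2* and *Ier3* encode small early response proteins, and IER3 is known to act on cell survival. *Ier2* had medians of 16.7 and 14.5 CPM in early WT and Fosl-2(Tg) tendons and of 15.7 and 20.1 CPM in the established groups. *Ier3* was at 17.7 to 33.2 CPM (median 25.3) in early WT and at 21.9 to 55.8 CPM (median 33.5) in early Fosl-2(Tg) tendons. Of the 8 early Fosl-2(Tg) libraries, 4 lay above every WT library. The log2 fold change of *Ier3* was 0.47 (standard error 0.18, 95% interval 0.08 to 0.87), with an unadjusted p of 0.0194 and an FDR of 0.752 by edgeR. It was the one member with an unadjusted p under 0.05 in the early cohort, where 6.06% of all genes tested had one. In the established cohort, *Ier3* was at 14 to 24.2 CPM in WT and 12.2 to 25.3 CPM in Fosl-2(Tg) tendons, with a log2 fold change of 0.05 (95% interval -0.32 to 0.43, FDR = 0.868).

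*Klf2* and *Klf4* were abundant. *Klf2* ranged from 42.9 to 106 CPM (median 59.4) in early WT and from 39.7 to 83.0 CPM (median 52.3) in early Fosl-2(Tg) tendons. Established libraries ranged from 65.1 to 83.2 CPM (median 77.6) in WT and from 55.9 to 142 CPM (median 71.4) in Fosl-2(Tg) tendons, of which 3 exceeded every WT library. *Klf4* was at 164 to 353 CPM in early WT and 165 to 329 CPM in early Fosl-2(Tg) tendons. The established values were 211 to 248 CPM in WT and 151 to 348 CPM in Fosl-2(Tg) tendons, so that the Fosl-2(Tg) libraries lay on both sides of the narrow WT range. The established log2 fold changes were 0.27 for *Klf2* (95% interval -0.17 to 0.71, FDR = 0.406) and 0.18 for *Klf4* (95% interval -0.14 to 0.50, FDR = 0.451).

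*Dusp1* was at 54.0 to 103 CPM (median 84.0) in early WT tendons. In early Fosl-2(Tg) tendons it was at 66.2 to 287 CPM (median 78.6), with 2 libraries at 164 and 287 CPM and the others at or below 98.3 CPM. Established *Dusp1* levels were 54.7 to 87.8 CPM (median 83.9) in WT and 71.1 to 139 CPM (median 92.4) in Fosl-2(Tg) tendons, where 4 of 7 libraries exceeded every WT library. The established log2 fold change was 0.43 (standard error 0.18, 95% interval 0.03 to 0.83). Its unadjusted p was 0.0333 and its FDR 0.154 by edgeR. No other member had an unadjusted p under 0.05 in this cohort, where 26.6% of all genes tested had one.

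*Atf3* encodes a stress-induced transcription factor, and *Nr4a1* an orphan nuclear receptor. *Atf3* was at 2.53 to 11.1 CPM (median 4.00) in early WT and at 1.78 to 13.0 CPM (median 3.83) in early Fosl-2(Tg) tendons. Established WT tendons had 2.49 to 6.82 CPM (median 3.09) and established Fosl-2(Tg) tendons 2.71 to 14 CPM (median 5.64). The established log2 fold change was 0.64 (standard error 0.37, 95% interval -0.18 to 1.45, FDR = 0.282 by edgeR). *Atf3* passed the threshold with limma voom and quality weights (0.86, FDR = 0.0346) and with the muscle score as a covariate (0.80, FDR = 0.0328), but not with DESeq2 (FDR = 0.245). Without established Fosl-2(Tg) replicate 5, the library at 14 CPM, the fold change was 0.32 and did not pass. *Nr4a1* was at 12.7 to 17.2 CPM in 6 early WT libraries and at 81.4 CPM in the other, and at 7.34 to 64.7 CPM (median 18.5) in early Fosl-2(Tg) tendons. At the established stage it was at 14.7 to 43.6 CPM (median 20.3) in WT and 12.6 to 27.9 CPM (median 19.3) in Fosl-2(Tg) tendons. Its established log2 fold change was -0.41 (95% interval -0.99 to 0.17, FDR = 0.334) with edgeR and 0.030 (FDR = 0.949) with limma voom, so its direction depended on the method.

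All 10 members passed the filter on low counts. In the early cohort, 0 of 10 passed an FDR of 0.05 with edgeR, with DESeq2 or with limma voom, where edgeR called 0.0396% of all genes. The fold changes of 7 of 10 members were positive, with a median of 0.23 against -0.01 over all genes tested. In the established cohort, 0 of 10 passed with edgeR and with DESeq2, and 1 (*Atf3*) with limma voom. The background there was 6.51% of genes, with 3.14% higher and 3.37% lower in the transgenic group. Here 8 of 10 were positive, with a median log2 fold change of 0.31 against 0.01 over all genes. Many members were correlated across libraries (given below), so in neither cohort are these signs separate observations. No member separated the genotypes without overlap in either cohort, whereas 0.0528% of genes did so at the early stage and 3.81% at the established stage. Single libraries moved several of these values by more than 1.5 times without a call. In the established cohort, the log2 fold change of *Egr2* fell to 0.16 without Fosl-2(Tg) replicate 7, those of *Ier2* and *Klf2* to 0.20 and 0.12 without replicate 2, and that of *Klf4* to 0.093 without replicate 3. *Nr4a1* was at -0.20 without established WT replicate 5. Early *Dusp1* was at 0.16 without Fosl-2(Tg) replicate 5, early *Egr2* at 0.27 without WT replicate 6 and early *Klf2* at -0.15 without WT replicate 2. For the interaction term, the difference of the genotype effect between the cohorts, 0 of 10 members were called by edgeR, DESeq2 or limma voom, while edgeR called 7.43% of all genes. An unadjusted p under 0.05 was reached by 0 members with edgeR and 2 with limma voom. The interval for *Egr1* was wide (log2 difference 0.62, 95% interval -0.64 to 1.88).

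**Figure D2:**
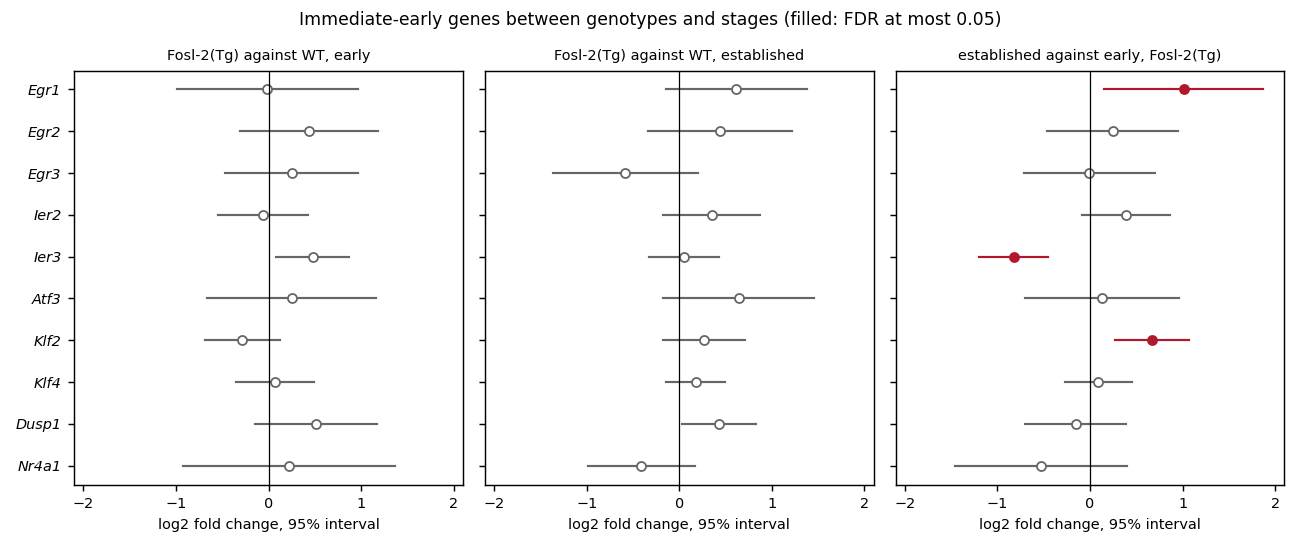
Log2 fold change (horizontal axis) of each immediate-early gene with its 95% interval in edgeR, for Fosl-2(Tg) against WT in the early (left) and established (middle) cohort and for established against early Fosl-2(Tg) tendons (right); filled red symbols have an FDR of at most 0.05. No symbol is filled between genotypes, and *Egr1* (1.01), *Ier3* (-0.83) and *Klf2* (0.67) are filled between the stages.

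Between the stages, WT tendons had 0 of 10 members called by edgeR, DESeq2 or limma voom, against 5.81% of all genes. An unadjusted p under 0.05 was reached there by 2 members in edgeR, *Egr3* (log2 fold change 0.82, FDR = 0.179) and *Ier3* (-0.40, FDR = 0.222). In Fosl-2(Tg) tendons, 3 of 10 were called, against 47.8% of all genes (25.8% higher and 22% lower in the established cohort), so the share of members was below that of all genes. *Egr1* was higher in established than in early Fosl-2(Tg) tendons (log2 fold change 1.01, standard error 0.42, FDR = 0.0471). *Klf2* was higher (0.67, standard error 0.19, FDR = 0.00581) and *Ier3* was lower (-0.83, standard error 0.18, FDR = 0.000513). The call of *Egr1* was held in 10 of 28 fits with 1 library left out, its fold change falling to 0.68 (FDR = 0.179) without established Fosl-2(Tg) replicate 3. It was also lost with RLE scaling (FDR = 0.0507), without the filter on low counts (0.0583), with the replicate number as a block (0.147) and with the muscle score as a covariate (0.176). The 18 libraries whose omission ended the call were early WT replicates 3, 4 and 5, early Fosl-2(Tg) replicates 2, 3, 4, 6, 7 and 8, established WT replicates 1, 2, 4, 5 and 6, and established Fosl-2(Tg) replicates 2, 3, 4 and 7. With limma voom, 4 members were called, the fourth being *Ier2* (FDR = 0.0253), where 8889 of 16082 genes were called. *Ier3* and *Klf2* were called in all 28 of the fits with 1 library left out, and *Klf2* had an FDR of 0.0512 with the muscle score as a covariate. The difference between the stages carries the difference in sex, and the interaction term for these 3 genes did not pass the test (FDR = 0.550, 0.229 and 0.305 for *Egr1*, *Klf2* and *Ier3*).

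The spread between libraries of the same group was wide for these genes. The SD of log2 CPM of *Egr1* was 0.99 in early WT, 1.06 in early Fosl-2(Tg), 0.38 in established WT and 0.88 in established Fosl-2(Tg) tendons. Over all 16082 genes tested, the median SD was 0.29, 0.26, 0.23 and 0.28 in the same groups. All 10 members lay above that median in 3 of the groups, and 8 of 10 in established WT tendons. The counting error of *Egr1* was 0.042 to 0.083 on this scale, well below that spread. For *Egr3*, in contrast, counting error (0.27) was nearly as large as the SD (0.30) in early WT tendons.

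In early Fosl-2(Tg) tendons, the SD of *Nr4a1* (1.21) exceeded that of 98.4% of all genes, the highest standing of any member. Established WT tendons were the most even group for 7 of 10 members, and the median SD of all genes tested was also lowest there (0.23). *Klf4* had an SD of 0.079 there, below all but 4.76% of genes, against 0.36, 0.43 and 0.37 in the other groups. *Klf2* had an SD of 0.15 in established WT and 0.52 in established Fosl-2(Tg) tendons. A difference in spread between groups was not tested, and with 6 to 8 mice per group an SD is itself imprecise.

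**Figure D3:**
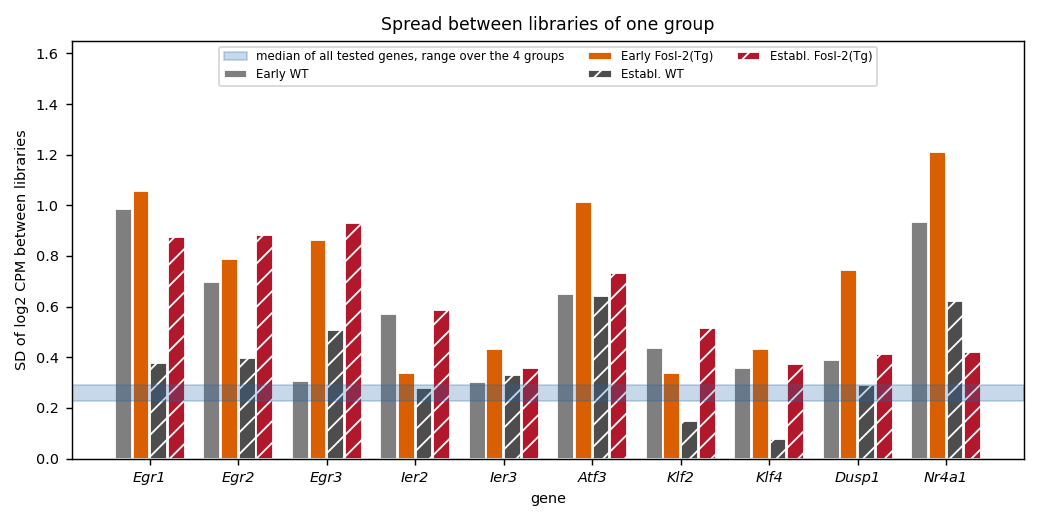
SD of log2 CPM between the libraries of a group (vertical axis) for each immediate-early gene in the 4 groups; the shaded band is the range over the groups of the median SD of all tested genes (0.23 to 0.29). Most bars stand above the band, and *Klf4* (0.079) and *Klf2* (0.15) in established WT tendons stand below it.

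Most of the members correlated with *Egr1* across libraries. After the group means had been subtracted, *Egr1* correlated with *Ier2* over the 28 libraries with r = 0.82 (rho = 0.84, permutation test, p = 1e-05, the smallest that 100000 permutations can give; adjusted over 9 pairs 6e-05). The values were r = 0.78 (rho = 0.80) for *Egr2* and r = 0.77 (rho = 0.79) for *Klf2* (permutation test, adjusted p = 6e-05 for both). *Ier3* (r = 0.66, rho = 0.67), *Egr3* (0.61 and 0.61), *Dusp1* (0.57 and 0.57) and *Klf4* (0.49 and 0.45) also passed for r (permutation test, adjusted p = 0.00121, 0.00214, 0.00873 and 0.0368), though *Klf4* did not for rho (adjusted p = 0.0523). *Nr4a1* (r = 0.34, rho = 0.36, permutation test, adjusted p = 0.159) and *Atf3* (r = 0.29, rho = 0.37, adjusted p = 0.191) did not. Without the 2 libraries in which *Egr1* was farthest from the median (early Fosl-2(Tg) replicate 8 and early WT replicate 7), r was 0.83 for *Ier2*, 0.76 for *Egr2* and 0.77 for *Klf2*, and the same number of pairs, 7 of 9, passed.

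Within the early cohort, r with *Egr1* was 0.85 for *Egr2*, 0.82 for *Klf2* and 0.80 for *Ier2* over 15 libraries (permutation test, adjusted p = 0.00105 for each), and 5 of 9 pairs passed. Early WT replicates 1, 2 and 3 had *Egr1* at 61.7, 74.5 and 51.5 CPM, and the other early WT libraries at 11.6 to 29.8 CPM. *Ier2* and *Klf2* were split between the same libraries. The permutations treat the libraries of a group as exchangeable, and no correlation was run with this split or the replicate number removed. Within the established cohort, *Ier2* (r = 0.91, permutation test, adjusted p = 0.00495) and *Ier3* (r = 0.77, adjusted p = 0.00855) passed over 13 libraries. *Klf2* (0.73) and *Egr2* (0.70) had similar coefficients there without passing (permutation test, adjusted p = 0.0788 and 0.0743). *Atf3* had r = -0.016 in the established and 0.43 in the early cohort, and passed in neither.

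*Atf3*, *Nr4a1* and *Klf4* also had high coefficients with each other, though no clustering was run. Over the 45 pairs of members, all coefficients were positive and 29 passed an adjusted p of 0.05. *Atf3* correlated with *Nr4a1* at r = 0.81 (rho = 0.73, permutation test, adjusted p = 0.00018) and with *Klf4* at r = 0.68 (rho = 0.66, adjusted p = 0.00304). *Klf4* and *Nr4a1* were related at r = 0.74 (rho = 0.64, permutation test, adjusted p = 0.00128). Without the 2 libraries farthest from the median, these coefficients were 0.70, 0.57 and 0.70. *Atf3* and *Klf2* had the lowest coefficient of all pairs (r = 0.12, rho = 0.28, permutation test, adjusted p = 0.574). *Ier2* and *Klf2* had the highest (r = 0.86, rho = 0.83, permutation test, adjusted p = 0.00018; 0.80 without 2 libraries).

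**Figure D4:**
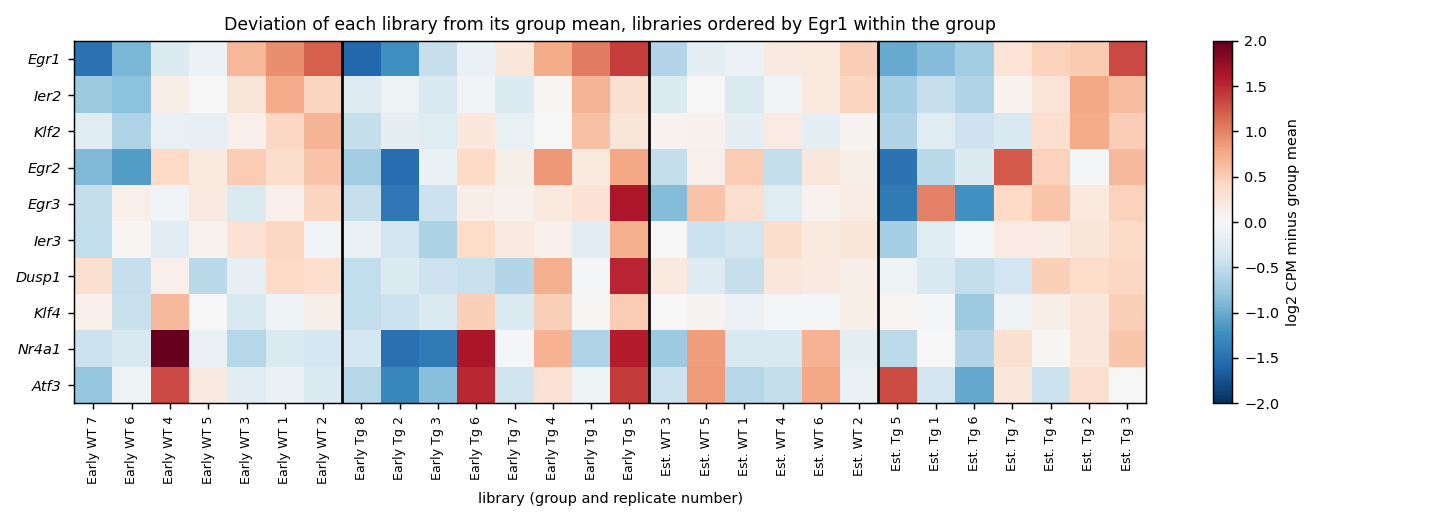
Deviation of each library from its group mean (colour, log2 CPM, limited to 2 in either direction) for the 10 genes in rows, with libraries in columns ordered by *Egr1* within each group. *Ier2* and *Klf2* follow *Egr1* from left to right, whereas *Nr4a1* and *Atf3* are high together in early WT replicate 4 and in early Fosl-2(Tg) replicates 5 and 6.

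Single libraries carried several of the high values. Established Fosl-2(Tg) replicates 2, 3 and 4 had *Egr1* at 95.4, 166 and 91.0 CPM and *Klf2* at 142, 119 and 107 CPM. *Dusp1* in the same libraries was at 128, 133 and 139 CPM, and *Ier2* at 32.6, 29.3 and 23.0 CPM. These were the 3 highest values of their group for all 4 genes. Early Fosl-2(Tg) replicate 5 had the highest *Egr1* (81.1 CPM), *Egr3* (5.25 CPM), *Ier3* (55.8 CPM), *Klf4* (329 CPM) and *Dusp1* (287 CPM) of its group. Early WT replicate 4 stood high for *Nr4a1* (81.4 CPM), *Atf3* (11.1 CPM) and *Klf4* (353 CPM) but not for *Egr1* (26.8 CPM).

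**Figure D5:**
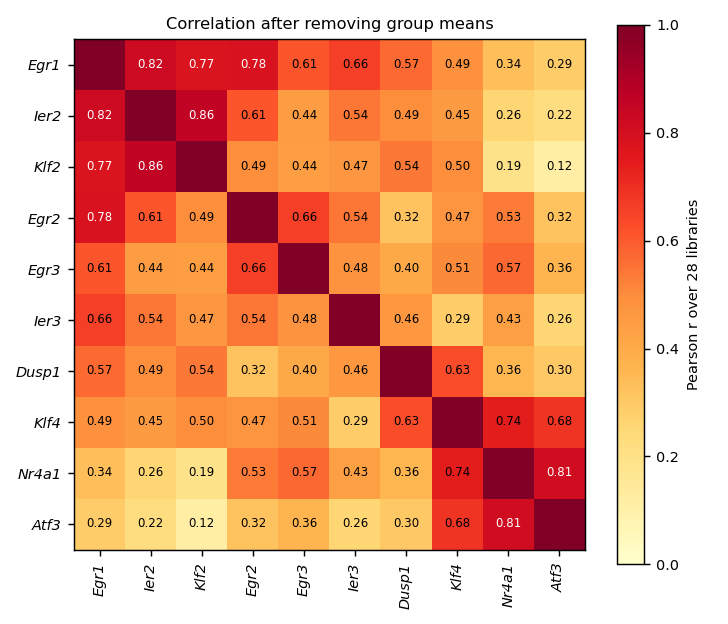
Pearson correlation (colour and printed value) between each pair of immediate-early genes over 28 libraries after removal of the group means. The order of the genes was set by hand. The upper left block holds *Egr1*, *Ier2*, *Klf2* and *Egr2* (0.49 to 0.86) and the lower right block *Klf4*, *Nr4a1* and *Atf3* (0.68 to 0.81). Pairs outside these blocks were also high, with 0.66 for *Egr2* and *Egr3*, 0.63 for *Klf4* and *Dusp1* and 0.57 for *Egr3* and *Nr4a1*.

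Several marker scores correlated with *Atf3* and *Nr4a1*. Among 120 relations of the members with marker lists, heat shock genes, the Fos and Jun families and library totals, 19 passed an adjusted p of 0.05. *Atf3* correlated with the skeletal muscle score at r = 0.62 (rho = 0.62, permutation test, adjusted p = 0.00257; 0.59 without the 2 farthest libraries) and with the endothelial score at r = 0.60 (rho = 0.59, adjusted p = 0.00804; 0.51). *Nr4a1* had r = 0.45 with the muscle score (rho = 0.42, permutation test, adjusted p = 0.0313; 0.42) and 0.55 with the endothelial score (rho = 0.53, adjusted p = 0.0142; 0.42). The pericyte and smooth muscle score had r = 0.56 with *Atf3* (rho = 0.55, permutation test, adjusted p = 0.0136; 0.57) and 0.49 with *Nr4a1* (rho = 0.45, adjusted p = 0.0258; 0.51). The adipocyte score, from markers that summed to between 0.167 and 12.7 CPM, had r = 0.51 with *Atf3* (rho = 0.55, permutation test, adjusted p = 0.0293; 0.51). The 2 established WT libraries with the highest muscle sums (8100 and 5546 CPM) had the highest *Nr4a1* of their group (43.6 and 39.2 CPM). They also had the highest endothelial (73.5 and 59.4 CPM), pericyte and smooth muscle (170 and 153 CPM) and adipocyte sums (9.47 and 9.44 CPM) of that group. Relations with these marker scores are therefore not separate observations, and correlations between the scores were not run. Established Fosl-2(Tg) replicate 5 had the highest muscle sum of its group (2871 CPM) and the highest *Atf3* (14 CPM).

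*Atf3* and *Nr4a1* also followed the score of 10 heat shock genes (r = 0.57 and 0.55, rho = 0.57 and 0.49, permutation test, adjusted p = 0.0258 and 0.0284; 0.46 and 0.45 without 2 libraries). With the muscle score regressed out, *Egr1* correlated with *Atf3* at r = 0.52 (permutation test, adjusted over 9 pairs p = 0.0226) and with *Nr4a1* at 0.48 (p = 0.0357), and all 9 pairs passed. *Atf3* and *Nr4a1* remained related to each other at r = 0.76. For *Egr1*, r was -0.18 with the muscle score, 0.20 with the tendon fibroblast score and 0.09 with the library total, none of which passed (rho = -0.19, 0.083 and 0.13, permutation test, adjusted p = 0.698, 0.736 and 0.885). The part of other cells in these relations was not tested beyond the regression.

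The Fos and Jun families followed the same libraries. The mean log2 level of *Fos*, *Fosb*, *Fosl1*, *Fosl2*, *Jun*, *Junb* and *Jund* correlated with every member, from r = 0.61 for *Atf3* (rho = 0.67, permutation test, adjusted p = 0.0263; 0.46 without 2 libraries) to r = 0.84 for *Egr1* (rho = 0.80, adjusted p = 0.0009; 0.80). Between genotypes, 0 of these 7 genes passed an FDR of 0.05 in either cohort with edgeR (an unadjusted p under 0.05 was reached by 0 of 7 early, against 6.06% of all genes, and by 2 of 7 in the established cohort, against 26.6%). Among 14522 named genes with a mean of at least 1 CPM, the gene most like *Egr1* over the 28 libraries was *Junb* (r = 0.92), followed by *Fos* (0.90), both subunits of AP-1. *Hspbp1*, which encodes a co-chaperone of HSP70 (0.84), *Ier2* (0.82), *Socs3*, a suppressor of cytokine signalling (0.82), and the Wnt receptor gene *Fzd7* (0.81) came next. *Gm37352* (0.79), *Nf2* (0.79), *Ssrp1* (0.79) and *Egr2* (0.78) completed the 10 genes ranked. *Klf2* ranked 11, whereas *Nr4a1* ranked 2519 and *Atf3* 3082, and the median coefficient of all genes ranked was -0.02.

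Of 34 other immediate-early and early response genes, 30 were tested. In the early cohort, 0 of 30 passed an FDR of 0.05 with edgeR (1 had an unadjusted p under 0.05). In the established cohort, 8 of 30 (26.7%) had a higher level with the transgene and 0 a lower one, against 3.14% of all genes higher. The list was chosen with earlier results of these data known, so this share is not an independent test. The median log2 fold change of the 30 genes was 0.51, against 0.31 for the 10 members and 0.01 for all genes. *Nfil3*, which encodes a basic leucine zipper repressor, averaged 31.3 ± 14.9 CPM (SD, n = 7) with the transgene and 7.15 ± 2.69 CPM (SD, n = 6) without it (log2 fold change 2.14, standard error 0.33, FDR = 0.00796). *Cebpd*, a C/EBP family factor, was at 104 ± 29.5 and 41.6 ± 16.0 CPM (1.33, standard error 0.26, FDR = 0.0157). *Maff* (0.71) and *Klf6* (0.67) were also higher (FDR = 0.0174 for both), as were *Trib1*, *Gadd45a*, *Socs3* and *Pim1*. The count was 4 without established WT replicate 1 and 10 without established Fosl-2(Tg) replicate 6, and was 13 with DESeq2 and 15 with limma voom. DESeq2 and limma voom also called more of all genes in either direction (2179 of 21980 and 1984 of 15862, against 1032 of 15862 with edgeR).

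The corepressors of EGR factors and the genes known to depend on EGR1 in tendon were examined next. Of 2 corepressor genes tested, 1 was called in the established cohort, where 3.37% of all genes were lower. This was *Nab1*, which encodes a protein that binds EGR factors and represses their activity. It was lower in established Fosl-2(Tg) (41.2 ± 4.71 CPM, SD, n = 7) than in WT tendons (52.4 ± 4.46 CPM, SD, n = 6), which is -0.34 on the log2 scale (standard error 0.084, FDR = 0.0324). Its call was not examined with a library left out. Among 10 tendon and matrix genes linked to EGR1, 4 were lower and 0 higher in established Fosl-2(Tg) tendons (40% against 3.37% of all genes lower), and 0 of 10 were called in the early cohort (1 with an unadjusted p under 0.05). This list too was chosen with earlier results of these data known, so the share is not an independent test. The tendon transcription factor gene *Scx* was at 34.4 ± 16.9 CPM (SD, n = 7) against 83.5 ± 12.7 CPM (SD, n = 6) in WT (log2 fold change -1.27, FDR = 0.0444). *Tnmd* (-2.03), *Col1a1* (-2.50) and *Col1a2* (-2.23), which encode tenomodulin and the chains of type I collagen, were lower too (FDR = 0.0386, 0.0356 and 0.0367). All 4 calls lie close to the threshold: the count was 0 in fits that left out established WT replicate 1, 2, 4, 5 or 6 or Fosl-2(Tg) replicate 1, 2 or 3. *Scx*, *Tnmd* and *Col1a1* are also tendon fibroblast markers and enter the lower marker sum given above, which is therefore not separate evidence. *Col1a1* alone averaged 73458 CPM in established WT and 12955 CPM in established Fosl-2(Tg) tendons.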

How the data were processed

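Bulk RNA-sequencing libraries of tail tendon fascicles from 28 mice were grouped by the genotype and cohort in the labels. RNA was prepared from snap-frozen, ground tissue, with ribosomal RNA depletion. The deposited values are raw counts per gene, which the authors obtained by mapping with STAR to GRCm39 (GENCODE M26) and counting with featureCounts. The strand setting and the treatment of multiply mapped reads are not given in the sources used here. Of 25719 gene identifiers, 25505 were named with GENCODE M39 on the same build, and transcript lengths and promoters come from its canonical transcripts. One promoter match is not reported here.

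Counts were filtered with filterByExpr (minimum count 10, minimum total 15), scaled by TMM and tested with edgeR 4.0.16 (R 4.3.3) by the quasi-likelihood test, within each cohort for genotype and in 1 fit of 4 groups for the interaction and the stages. P-values were adjusted over all genes tested by the Benjamini-Hochberg method (FDR). Intervals are 95%. Levels are CPM, with a prior count of 2 on the log2 scale. Correlations used 100000 two-sided permutations within groups. The members and the gene lists were chosen with earlier results of these data known. All 10 members were named. From the other lists, genes past an FDR of 0.05 were named, at most 4 per list and comparison with values (the smallest p first), together with the 10 genes most like *Egr1*. *Trib1*, *Gadd45a*, *Socs3* and *Pim1* were added after their values were seen, as were the marker relations and the counts of the other lists under alternatives.

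Alternatives were DESeq2 1.42.0, RLE scaling, no filter, limma 3.58.1 voom, a muscle score covariate, sex, the replicate number as a block and each library left out. On simulated counts with 200 changed genes, edgeR recovered 95.3% in the early (15040 genes) and 97% in the established design (15745 genes). Recovery was 88% for the interaction and 94.4% between the stages in Fosl-2(Tg) mice. Unchanged genes made up 5.88% and 5.1% of the calls there. Recovery at fold changes as small as those of the members between genotypes was not tested. Same-numbered WT and Fosl-2(Tg) mice deviated together in the early cohort (7 of 7 pairs, correlation 0.129 to 0.363), where the labels say nothing on pairing. The block changed no call of a member between the early genotypes, while 11 of all genes were called with it, against 6 in the main fit. No 2 libraries of a group were near duplicates (chi-square per degree of freedom at least 7.02). Mice are separate animals, and counting errors cover counting only.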

Additional observations from a re-analysis of the deposited data

Results flagged for a closer look

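In 6 of 40 sets of a gene in a group, the highest library stood apart from the others by Dixon's criterion on CPM. For normally distributed values, chance flags about 1 of 20 groups, and CPM are skewed to high values. On the log2 scale, a comparison chosen after seeing the data, 1 of the 40 sets stood apart, *Nr4a1* in early WT tendons (gap 0.839 of the range). The gaps of the other 5 sets were 0.381 to 0.548 of the range there, below the criterion. *Nr4a1* in early WT replicate 4 was at 81.4 CPM, with the next library at 17.2 CPM. The same library was apart in CPM for *Atf3* (11.1 CPM, next 4.97) and *Klf4* (353 CPM, next 243), and its skeletal muscle sum (4581 CPM) was the highest of its group. Early Fosl-2(Tg) replicate 5 was apart in CPM for *Egr3* (5.25 CPM, next 2.04) and *Dusp1* (287 CPM, next 164). *Atf3* in established Fosl-2(Tg) replicate 5 was at 14 CPM, with the next library at 7.01 CPM, and this library had the highest muscle sum of its group (2871 CPM). Without early WT replicate 4, the early log2 fold change of *Nr4a1* was 0.93 in place of 0.22, and it did not pass the test.

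The genotype effect differed between the cohorts by the interaction term of edgeR for 8 of the named genes that are not members. They were named because they passed, so their number is not a result. Of the other early response genes, 1 of 30 was called, and of the EGR1-linked genes 5 of 10, against 7.43% of all genes. The EGR corepressors had 1 of 2 and the KLF2 and KLF4 targets 1 of 6. The glucocorticoid, heat shock, upstream factor and Fos and Jun lists had 0. Genes called only in marker lists were left out. *Klf6* differed by 0.87 on the log2 scale (established minus early, FDR = 0.0140) and *Edn1*, the gene of endothelin-1, by 2.22 (FDR = 0.0428). *Nab1* differed by -0.47 (FDR = 0.0158). The tendon and matrix genes *Col1a1* (-3.04, FDR = 0.0130), *Col1a2* (-2.69, FDR = 0.0128), *Tnmd* (-1.94, FDR = 0.0358), *Scx* (-1.41, FDR = 0.0457) and *Tgfb2* (-1.04, FDR = 0.0104) also had a negative difference. The cohorts also differ in sex.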

How the results depend on the processing

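The count of members called between genotypes stayed at 0 in the early cohort and for the interaction under all alternatives run. In the established cohort it was 1 with limma voom and 1 with the muscle score as a covariate (*Atf3* in both), and 0 otherwise. Those fits called 1984 and 1713 of 15862 genes, respectively, against 1032 in the main fit. Between the stages it stayed at 0 in WT, while in Fosl-2(Tg) tendons it was 4 with limma voom, 1 with the muscle score, 2 with RLE scaling, without the filter or with the replicate block, and 2 to 3 with a library left out, against 3. The number of members correlated with *Egr1* was 2 within the established cohort against 7. In counts added after seeing the data, among the other early response genes called higher, the count was 13 with DESeq2, 15 with limma voom and 4 to 10 with a library left out, against 8. For the EGR1-linked tendon genes it was 0 to 4, against 4. Some fold changes that had not passed the test changed sign. With the muscle score, the early values were 0.32 for *Egr1*, 0.073 for *Ier2*, -0.022 for *Atf3* and -0.16 for *Nr4a1*. With the replicate block they were 0.25 for *Egr1* and 0.039 for *Ier2*, and the interaction of *Egr2* was -0.19. With limma voom, *Nr4a1* (established) was 0.030, against -0.41, and the interaction of *Dusp1* 0.19. *Atf3* and *Egr1* had r = -0.016 within the established cohort. The causes were not tested.

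With a library left out, the early fold change ranged from -0.26 to 0.22 for *Egr1*, -0.15 to 0.39 for *Egr3*, -0.18 to 0.10 for *Ier2*, -0.044 to 0.60 for *Atf3*, -0.0089 to 0.20 for *Klf4* and -0.072 to 0.93 for *Nr4a1*. The established value ranged from -0.025 to 0.14 for *Ier3*. Interactions ranged from -0.26 to 0.17 for *Egr2*, -0.026 to 0.20 for *Klf4* and -0.17 to 0.27 for *Dusp1*. The replicate block changed no other call of a member. Same-numbered mice of the established cohort deviated together in 4 of 6 pairs (-0.223 to 0.688) and the labels name nothing that the numbers share, so they were not treated as pairs. The median spread of the members (0.47) was 0.38 to 0.49 under the alternatives. Depth limits *Egr2* and *Egr3*.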

Other observations

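Of 9 glucocorticoid-responsive genes, 2 were higher and 0 lower in established Fosl-2(Tg) tendons, and 7 had an unadjusted p under 0.05 in edgeR. Over all genes tested, 3.14% were higher and 26.6% had an unadjusted p under 0.05. The list was chosen with earlier results of these data known, so its counts are not an independent test. *Fkbp5*, the gene of a co-chaperone of steroid receptors, was at 134 ± 80.0 CPM (SD, n = 7) against 52.0 ± 12.9 CPM (SD, n = 6) in WT (log2 fold change 1.38, FDR = 0.0268). *Zbtb16*, which encodes a zinc finger repressor, was at 152 ± 68.8 against 73.7 ± 20.7 CPM (1.05, FDR = 0.0349). This list shares *Dusp1* with the members and *Per1* and *Sgk1* with the other early response genes. In the early cohort, 0 of 9 were called (0 with an unadjusted p under 0.05).

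The upstream factors did not pass the test between genotypes. Of 21 genes of serum response factor, its cofactors, CREB and MAP kinases, 0 were called in the early (0 with an unadjusted p under 0.05) and 0 in the established cohort (5 with an unadjusted p under 0.05). The shares over all genes in the established cohort were 6.51% called and 26.6% with an unadjusted p under 0.05, and 5 of 21 is close to the latter. Of 10 heat shock genes, 1 (*Bag3*) was lower in established Fosl-2(Tg) tendons (-0.43, FDR = 0.0470), against 3.37% of all genes lower. Of 6 genes listed as KLF2 and KLF4 endothelial targets, 1 (*Edn1*) was higher (5.90 ± 6.07 CPM, SD, n = 7, against 1.61 ± 0.446 CPM, SD, n = 6; log2 fold change 1.88, FDR = 0.0471), against 3.14% of all genes higher. That list also holds the member *Klf2* itself. Both calls lie close to the threshold and were not examined with a library left out. The SD of *Edn1* exceeded its mean with the transgene.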
